A study of Mus musculus with 17 samples.

Results

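The comparison described here is that of an Arid3a transgene with a luciferase control (LUC) in mouse fetal liver cells, read across all genes. Its members are the 6 libraries whose labels name LUC or Arid3a as the second transgene, of 17 samples in the series. Fetal livers were taken between E12.5 and E13.5 (days post coitum) from a B6J.129(Cg) strain whose Gt(ROSA)26Sor locus holds the allele tm1.1(CAG-cas9*,-EGFP)Fezh, in which the broadly active CAG promoter drives Cas9 and EGFP. All 6 libraries, controls included, carried sgGata1 as the first transgene, a guide RNA against Gata1, and the labels call the cells Gata1s-FLCs. Each group had 3 libraries, and both received doxycycline at 1 µg/mL for 48 h. The labels name no cell sort, and neither the promoter behind the second transgene nor whether replicates were separate embryos, cultures or transductions is given in the sources used here, so p-values measure the spread between these samples.

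ARID3A is a DNA-binding protein of the AT-rich interaction domain family, known for its part in B cell and fetal blood development. GATA1 drives the maturation of megakaryocytes and red cells, and GATA1s is its shorter form, which lacks the amino-terminal transactivation domain and is found in the myeloid leukemia of children with Down syndrome. The series title concerns miR-125b, GATA1s and ARID3A as a target of that microRNA, and the transgene comparison asks which genes respond to added Arid3a. Luciferase, an insect enzyme, is a common control for the act of expressing a transgene.

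The transgene's own gene did not separate the groups. Arid3a (GRCm38 chromosome 10, plus strand, bases 79927043 to 79955018) stood at 67.3, 64.0 and 70.2 CPM (counts scaled to a common library size) in the LUC libraries 1, 2 and 3, and at 58.3, 74.3 and 80.1 CPM in the libraries labelled Arid3a. Replicate 1 labelled Arid3a was the lowest of all 6, and replicates 2 and 3 were above every LUC library. The log2 fold change was 0.08 with a standard error (SE) of 0.12, and the Benjamini-Hochberg adjusted p of edgeR's quasi-likelihood test was 0.730. Without replicate 1 it was 0.21, with an adjusted p of 0.0579, and without replicate 3 it was -0.019. The libraries are therefore called by their labels, and each direction given below is that of libraries labelled Arid3a in which higher Arid3a RNA was not shown. How the transgene's RNA would be counted was not tested. Gata1 (chromosome X) stood at 321, 343 and 323 CPM in LUC and at 298, 250 and 291 CPM in the libraries labelled Arid3a. The groups did not overlap, but the log2 fold change of -0.23 (SE 0.080) had an adjusted p of 0.157. Without replicate 1 labelled Arid3a it was -0.27, with an adjusted p of 0.0218. The guide against Gata1 is carried by both groups, and counts over the whole gene do not show whether or where it cut.

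The libraries held between 31339238 and 38678649 counts, and 13495 genes passed the filter on low counts. Replicate 1 labelled Arid3a stood apart from its group. The root mean square difference in log2 CPM over the genes tested was 0.897 between it and replicate 2 and 0.72 between it and replicate 3, against 0.506 between replicates 2 and 3 and 0.499 to 0.534 among the LUC libraries. The first principal component held 43.5% of the variance and spread the libraries labelled Arid3a from -60.4 (replicate 1) to 12.4 (replicate 3) and 41.7 (replicate 2), with the LUC libraries between -8.94 and 20.1. The second held 24.2% and split the groups, with LUC from 15.6 to 30.6 and the libraries labelled Arid3a from -30.9 to -18.5. Mitochondrially encoded transcripts took 1.69% to 1.96% of the counts in all 6 libraries. Histone transcripts, most of which lack a poly(A) tail, took 0.0138% in replicate 1 labelled Arid3a and 0.0060% to 0.0083% in the other libraries. Y-linked genes set replicate 3 of each group apart: Eif2s3y had 360 and 356 counts there and at most 2 in the other 4 libraries. Xist, the RNA of the inactive X chromosome, was present in all 6, at 1327, 1243 and 1010 CPM in LUC and 664, 2354 and 1612 CPM in the libraries labelled Arid3a. The part of embryo sex in the results was not tested. LUC replicate 3 stood apart in neutrophil granule genes. S100a9, a calcium-binding protein of neutrophils, had 1611 counts there and at most 2 elsewhere, Ngp 935 and at most 1, Ltf, lactoferrin, 707 and 0, and Lcn2, lipocalin 2, 332 and at most 4. Without that library 0 genes passed an adjusted p of 0.05 in edgeR and 1917 had an unadjusted p under 0.05, against 2 and 2930 with it. Such a fall was not particular to that library. The numbers were 0 and 1653 without LUC replicate 2, 0 and 2318 without replicate 2 labelled Arid3a, and 0 and 2069 without replicate 3 labelled Arid3a.

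**Figure D1:**
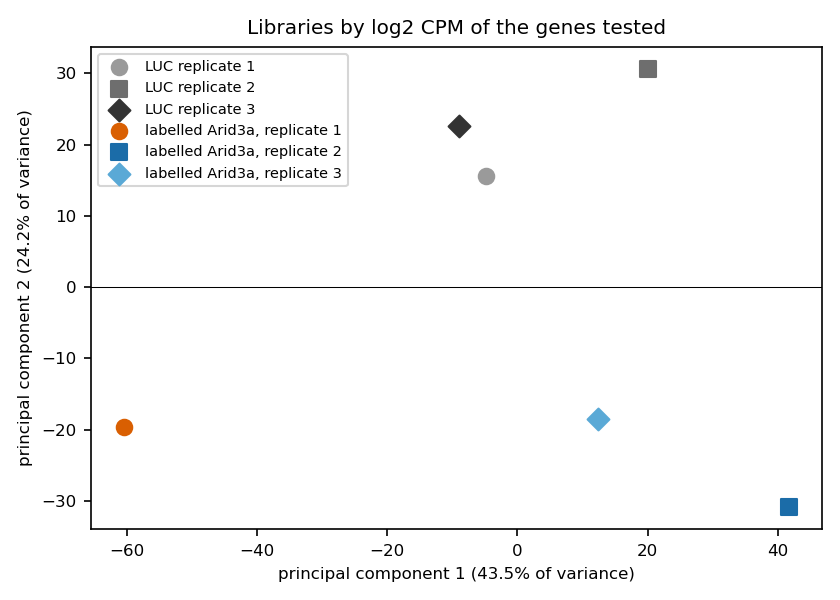
Each point is 1 library, placed by its first and second principal component of log2 CPM over the 13495 genes tested, with the share of variance on each axis. Grey points are LUC and coloured points are labelled Arid3a; replicate 1 labelled Arid3a lies at -60.4 on the first axis, away from the other 5, while the second axis splits the groups.

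With all 6 libraries, 2 genes passed an adjusted p of 0.05 (0.0148% of the genes tested), and both fell. Scin encodes scinderin, a calcium-dependent actin-severing protein of the gelsolin family, known in megakaryocytes and secretory cells. It stood at 1240, 1473 and 1324 CPM in LUC and at 586, 695 and 658 CPM in the libraries labelled Arid3a. All 3 of the latter were at about the same level, replicate 1 included, and below every LUC library. The log2 fold change was -1.06 (SE 0.095). Rapsn encodes rapsyn, which clusters acetylcholine receptors at the nerve-muscle synapse. It stood at 167, 187 and 174 CPM in LUC and at 102, 106 and 108 CPM in the libraries labelled Arid3a, again without overlap. Its log2 fold change was -0.74 (SE 0.066). The adjusted p was 0.0498 for both, just inside the threshold. Each gene passed it in 6 of 18 alternatives. Neither did with DESeq2's size factors in edgeR, library totals alone, the older or the robust quasi-likelihood fit, the replicate block, the length offset, or the length and GC offset with all 6 libraries, nor without any 1 library other than replicate 1 labelled Arid3a. The highest adjusted p was 0.368 for both. Over the alternatives the log2 fold change ran from -1.11 to -0.90 for Scin and from -0.77 to -0.49 for Rapsn. In GRCm38, Scin spans bases 40059769 to 40134228 of chromosome 12 (minus strand) and Rapsn bases 91035620 to 91045729 of chromosome 2 (plus strand). No annotated gene overlaps Scin, and 1 on the other strand overlaps Rapsn.

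The sequence just upstream of Scin is shown because Scin had the larger fall of the called pair. No such window was available for Rapsn, the other called gene, so it was not searched for either word below. It is RefSeq's, of build GRCm38.p6, chr12:40134229-40134478, read 5′ to 3′ on the gene's minus strand, and ends at the base before the annotated start.
Scin upstream: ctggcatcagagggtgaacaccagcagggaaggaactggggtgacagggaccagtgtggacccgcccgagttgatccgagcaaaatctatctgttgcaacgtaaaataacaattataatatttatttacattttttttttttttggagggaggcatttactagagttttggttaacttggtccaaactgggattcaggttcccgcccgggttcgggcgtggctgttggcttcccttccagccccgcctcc
Capitals would mark ATTAAA, an AT-rich word of the kind ARID domains bind, or AGATAA, a word of the GATA type, on either strand, and the window holds neither. Among the genes tested, 9437 had such a window of 250 bases in the RefSeq table, and 7.11% of those held ATTAAA. The share was 7.44% of 309 windows of genes with an adjusted p under 0.1 and higher levels, and 7.28% of 261 windows of those with lower levels. For AGATAA the shares were 5.79%, 4.53% and 3.83%. Over all 27025 RefSeq windows they were 13% for ATTAAA and 10.2% for AGATAA. Median GC content was 60.0% in windows of the genes tested, 63.6% and 58.4% in those of the higher and lower genes, and 52.0% in all windows.

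Below the 2 calls lay a broad set of differences that did not pass 0.05. An adjusted p under 0.1 was reached by 744 genes (5.51%), of which 404 were higher (2.99%) and 340 lower (2.52%) in the libraries labelled Arid3a. The number was 0 without LUC replicate 2 or 3, without replicate 2 or 3 labelled Arid3a, and with the replicate block, 6 without LUC replicate 1, 21 with a length offset and 4357 without replicate 1 labelled Arid3a. In all 744 the groups did not overlap, and the median size of the log2 fold change was 0.44. Over all genes tested, the groups did not overlap in 1748 with higher levels (13%) and 1974 with lower levels (14.6%). The genes named next are the 12 with the largest positive and the 12 with the largest negative fold change among protein-coding genes with an adjusted p under 0.1, an average log2 CPM of at least 3 and no overlap. They are described by level, since only Scin among them passed 0.05.

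In some of the higher genes replicate 1 lay furthest from LUC. Csf2rb, the common beta chain of the receptors for IL-3, IL-5 and GM-CSF, stood at 139, 143 and 157 CPM in LUC and at 430, 243 and 238 CPM in the libraries labelled Arid3a. Its paralog Csf2rb2, the IL-3-specific beta chain of the mouse, stood at 28.4, 31.4 and 33.7 CPM against 109, 58.9 and 63.5 CPM. In both, replicate 1 was the highest and replicates 2 and 3 still lay above LUC. The log2 fold changes were 1.06 (SE 0.23, adjusted p 0.0852) and 1.31 (SE 0.24, adjusted p 0.0801), and reads shared between these near-identical genes leave their split uncertain. Ikzf2, which encodes the zinc-finger factor Helios, was at 6.92, 5.53 and 9.40 CPM in LUC and 29.0, 15.9 and 17.3 CPM in the others. Robo3, a receptor of axon guidance, was at 52.4, 61.3 and 75.6 CPM against 203, 134 and 100 CPM.

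A second shape among the higher genes had replicate 1 nearest to LUC. Hipk2, a nuclear kinase that acts on p53 and other regulators, stood at 92.1, 70.9 and 77.8 CPM in LUC and at 104, 286 and 207 CPM in the libraries labelled Arid3a. Kmt2d, a histone H3 lysine 4 methyltransferase, stood at 83.8, 79.6 and 83.5 CPM against 113, 224 and 172 CPM. The adult alpha globin gene Hba-a1 stood at 20.3, 39.9 and 18.4 CPM against 40.3, 145 and 119 CPM. Its replicate 1 lay just above the highest LUC library, and its near-identical copy Hba-a2 can share its reads. The log2 fold changes were 1.31 for Hipk2 (SE 0.33), 1.04 for Kmt2d (SE 0.22) and 1.94 for Hba-a1 (SE 0.49), with adjusted p of 0.0972, 0.0852 and 0.0988. The other 5 were Spata13, an exchange factor for small GTPases (1.42), Dmd, dystrophin (1.37), Nwd1 (1.24), Exoc3l4 (1.23) and the nuclear receptor coactivator Ncoa1 (0.96). Other annotated genes overlap Dmd, Ikzf2, Hipk2, Nwd1, Exoc3l4 and Ncoa1, and also Csf2rb and Csf2rb2, each on its own strand. Of the lower genes named below, Ccnd1 is overlapped too, on the other strand. Whether counting used strand is not given in the sources used here.

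In some of the lower genes, too, replicate 1 lay furthest from LUC. Cxcr4, the receptor of the chemokine that holds progenitors in their niche, stood at 20.5, 30.6 and 23.8 CPM in LUC and at 5.49, 11.2 and 11.1 CPM in the libraries labelled Arid3a. B3gnt5, the enzyme that starts lacto-series glycolipids, was at 16.0, 19.2 and 15.6 CPM against 3.14, 8.0 and 7.90 CPM. Cd24a, a small surface glycoprotein of immature blood cells, was at 92.1, 93.9 and 69.0 CPM against 31.4, 38.1 and 50.1 CPM. Ccnd1, cyclin D1, was at 16.2, 17.6 and 19.8 CPM against 7.0, 10.2 and 9.63 CPM. All 4 were separated from LUC in each library, as the naming rule required. Their log2 fold changes were -1.44, -1.43, -1.09 and -1.0, with adjusted p from 0.0786 to 0.0852. Proser2 (-0.92) and Fkbp11, a prolyl isomerase of the secretory pathway (-0.90), had the same order of libraries, with replicate 1 the lowest.

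Other lower genes had replicate 1 nearest to LUC. Lgals1, the sugar-binding protein galectin-1, stood at 206, 257 and 240 CPM in LUC and at 148, 83.9 and 106 CPM in the libraries labelled Arid3a. Gzmb, the protease granzyme B, stood at 582, 678 and 514 CPM against 386, 279 and 296 CPM. Cited4, a partner of CBP and p300, stood at 35.5, 32.6 and 32.4 CPM against 18.3, 14.5 and 14.6 CPM. Their log2 fold changes were -1.05, -0.88 and -1.08, with SEs of 0.20, 0.15 and 0.12.

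**Figure D2:**
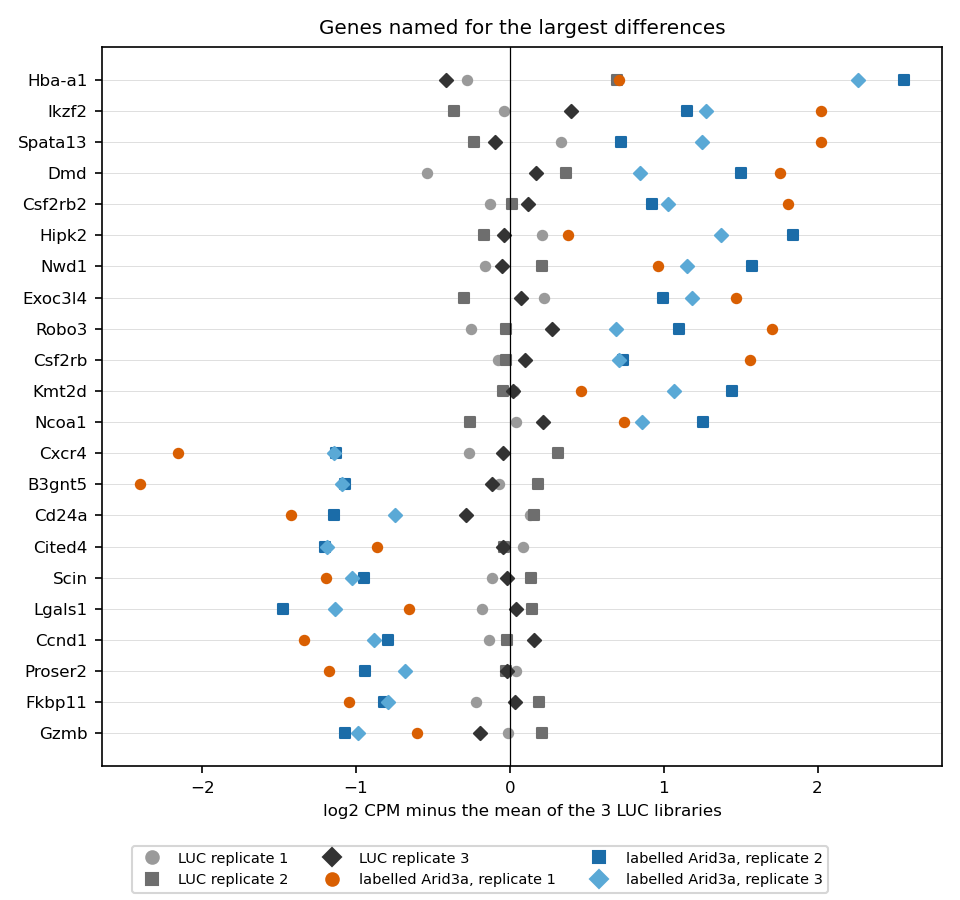
Each row is 1 of the 12 genes with the largest positive fold change or 1 of 10 of the 12 with the largest negative under the naming rule, and the horizontal axis is log2 CPM minus the mean of the 3 LUC libraries. As the naming rule required, every coloured point lies to the right of the grey points in its row in the upper 12 genes and to their left in the lower 10. For Hba-a1, replicate 1 is close to LUC replicate 2. Replicate 1 is furthest from LUC in some rows and nearest in others.

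How far the result turns on replicate 1 was seen by leaving it out. The fit of 3 LUC libraries against replicates 2 and 3 called 3283 of 13789 genes (23.8%), 1812 of them higher (13.1%) and 1471 lower (10.7%), against 2 calls with all 6. Replicate 1 took no part in that fit, but the LUC libraries it is set against did. Of 3259 such genes also tested with all 6, replicate 1 lay beyond the LUC range on the called side in 1898 (58.2%), within it in 746 (22.9%), and beyond it on the other side in 615 (18.9%). Measured in the called direction, its median difference from the LUC mean was 0.13 in log2 CPM, against 0.47 and 0.36 for replicates 2 and 3, which made the calls. Since the same LUC libraries made the calls and set this range, the shares are a description of the libraries, with no value for unchanged genes beside them.

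The genes in which replicate 1 went furthest against such a call included platelet and surface genes. Ppbp, the platelet chemokine precursor of alpha granules, stood at 24.8, 4.85 and 9.63 CPM in LUC and at 90.1, 0.97 and 3.40 CPM in the libraries labelled Arid3a. Its log2 fold change was 1.28 (SE 1.3, adjusted p 0.596) with all 6 libraries and -2.54 (adjusted p 0.0318) without replicate 1, so that 1 library sets the direction. Pf4, platelet factor 4, another alpha-granule chemokine, stood at 1256, 1152 and 1339 CPM against 1527, 354 and 510 CPM. Replicate 1 was the highest of all 6 and replicates 2 and 3 the lowest. Its log2 fold change was -0.65 (adjusted p 0.475) with all 6 and -1.52 (adjusted p 0.00023) without replicate 1. Gpr171, a G protein-coupled receptor, stood at 10.4, 5.98 and 8.37 CPM against 38.4, 2.97 and 5.30 CPM. Chd3, a chromatin remodeller of the NuRD complex, stood at 15.9, 14.5 and 20.9 CPM against 54.0, 7.85 and 10.0 CPM. Both changed sign without replicate 1, from 0.94 to -0.96 and from 0.50 to -0.91. Atp13a4, a membrane ATPase, was at 20.5, 20.8 and 21.5 CPM in LUC and at 24.5 CPM in replicate 1, against 3.91 and 4.83 CPM in replicates 2 and 3.

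In the opposite direction, Thbs1, thrombospondin 1 of alpha granules and a gene induced by TGF-beta, stood at 58.8, 46.2 and 80.9 CPM in LUC and at 27.5, 120 and 130 CPM in the libraries labelled Arid3a. Without replicate 1 its log2 fold change was 1.03 (adjusted p 0.0022), and with it 0.58 (adjusted p 0.542). Auts2, a nuclear regulator linked to Polycomb complexes, stood at 60.5, 68.1 and 64.3 CPM against 29.0, 137 and 100 CPM, and 26 annotated genes overlap its long locus. Mc5r, a melanocortin receptor, and C1qtnf1, a secreted protein of the C1q family, had the same shape, with replicate 1 at 3.06 and 3.81 CPM below every other library. Their log2 fold changes without replicate 1 were 0.64 and 1.15.

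**Figure D3:**
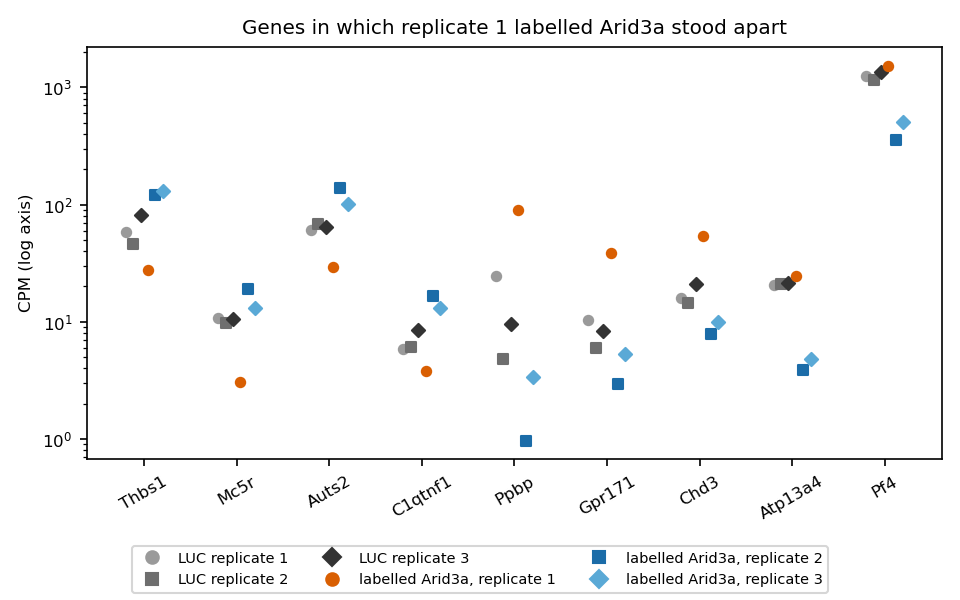
CPM on a log axis in each of the 6 libraries for the 8 genes in which replicate 1 labelled Arid3a lay furthest against a call made without it, and for Pf4. The orange point lies below the grey LUC points in the left 4 genes and above them in the next 4 and Pf4, opposite to the blue points of replicates 2 and 3.

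In 36 gene lists, fold changes were described by counts and medians, beside a median of 0.01 over all genes tested. Megakaryocyte and platelet genes were mixed. Of 38 tested, 23 had a log2 fold change above 0 and 15 below, with a median of 0.22, and none passed 0.05. Itgb3 and Itga2b, the subunits of the platelet fibrinogen receptor, were higher in every library. Itgb3 stood at 463, 355 and 424 CPM in LUC and at 855, 661 and 703 CPM in the libraries labelled Arid3a, a log2 fold change of 0.84 (SE 0.13, adjusted p 0.0738). Itga2b stood at 1192, 1240 and 1392 CPM against 1863, 1692 and 1637 CPM, a log2 fold change of 0.44 (adjusted p 0.0843). Nbeal2, needed for alpha granules, was higher at 0.33 and Mylk, myosin light chain kinase, at 0.69. Gfi1b, a repressor needed for megakaryocyte and red cell development, was lower, at 106, 113 and 111 CPM against 78.1, 71.0 and 78.8 CPM, a log2 fold change of -0.54 (adjusted p 0.0678). Cd9, a tetraspanin of platelets, was lower at -0.39. The list's median difference from LUC was 0.24 in replicate 1, -0.14 in replicate 2 and -0.04 in replicate 3, so its sign also turned on replicate 1, and its median was -0.07 without it.

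Actin regulators beside Scin were mixed. Talin (Tln1), which links integrins to actin, stood at 1299, 1321 and 1361 CPM in LUC and at 1781, 1866 and 1755 CPM in the libraries labelled Arid3a. Its log2 fold change was 0.44 (SE 0.064, adjusted p 0.0678). Vinculin (Vcl) was higher at 0.40 and Wasf2, a WAVE complex subunit, at 0.29, both with adjusted p under 0.1. Gsn itself, gelsolin, was at 29.9, 29.8 and 36.9 CPM against 47.5, 13.1 and 22.3 CPM, with replicate 1 above and the other 2 below every LUC library. Of 31 genes in the list, 10 were above 0 and 21 below, with a median of -0.13. Beside Rapsn, the list of acetylcholine receptor cluster and synapse genes had 10 tested members. Ache, acetylcholinesterase, was at 57.2, 53.8 and 59.7 CPM against 94.8, 71.2 and 73.8 CPM, a log2 fold change of 0.49 (adjusted p 0.0949), the opposite direction to Rapsn. The receptor subunit genes Chrna1 and Chrnd and the kinase gene Musk had no counts in any library.

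Erythroid genes were mixed too. Of 35 tested, 17 were above 0 and 18 below, with a median of -0.01. Carbonic anhydrases were lower: Car2 stood at 388, 429 and 431 CPM in LUC and at 293, 336 and 307 CPM in the libraries labelled Arid3a, a log2 fold change of -0.42 (adjusted p 0.081). Car1 was low throughout, at 3.31, 6.11 and 4.12 CPM against 1.08, 0.588 and 1.03 CPM. Adult globins did not pass 0.05. The beta globin gene Hbb-bs stood at 34.5, 43.6 and 26.9 CPM against 34.6, 74.5 and 59.8 CPM, with replicate 1 inside the LUC range and replicates 2 and 3 above it (log2 fold change 0.68, adjusted p 0.228). Hbb-bt stood at 3.52, 3.27 and 1.93 CPM against 4.27, 10.00 and 11.7 CPM (log2 fold change 1.55, adjusted p 0.109). The list's median was -0.34 in replicate 1 against 0.08 and 0.02 in replicates 2 and 3. In such bulk samples, fewer cells of a type and less RNA per cell cannot be told apart.

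Genes of the cell's production machinery were lower together, in small steps. Of 80 cytosolic ribosomal protein genes, 78 had a log2 fold change below 0, with a median of -0.32. The groups did not overlap in 55, all lower, where 14.6% of all genes tested were apart and lower. The medians by library were -0.10, -0.52 and -0.35, with replicate 1 nearest to LUC. Rps27, a protein of the small subunit, stood at 469, 478 and 422 CPM in LUC and at 303, 240 and 313 CPM in the libraries labelled Arid3a, a log2 fold change of -0.68 (SE 0.11, adjusted p 0.076). Of 77 mitochondrial ribosomal protein genes 76 were below 0, with a median of -0.27, and 58 did not overlap, all lower. Of 79 nuclear genes of the respiratory chain 75 were below 0, with a median of -0.28. Cox5a, a subunit of cytochrome c oxidase, was at 160, 188 and 189 CPM against 135, 112 and 117 CPM, a log2 fold change of -0.56 (adjusted p 0.0786). Of 38 proteasome subunit genes 37 were below 0, with a median of -0.19. Ribosomal protein genes have many near-identical pseudogene copies that can share their reads. None of the genes of these 4 lists passed 0.05 with all 6 libraries. Without replicate 1 labelled Arid3a, 68 cytosolic ribosomal, 48 mitochondrial ribosomal, 58 respiratory chain and 17 proteasome genes were called lower, and 1 respiratory chain gene was called higher. Over all genes in that fit, 10.7% were called lower.

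These genes are short, and length moved with the differences across all genes. When the genes were split into 5 bins of equal number by exonic length, the median log2 fold change was -0.15 in the shortest bin (at most 1814 bases), -0.10, -0.01 and 0.07 in the next 3, and 0.20 in the longest (at least 7040 bases). From the shortest to the longest bin, the median went from -0.04 to 0.08 in replicate 1, from -0.26 to 0.26 in replicate 2 and from -0.16 to 0.18 in replicate 3. The groups did not overlap in 5.76% of the shortest bin with higher levels and 21.0% with lower levels, and in 32.0% and 4.09% of the longest. The median exonic length was 1806 bases in the cytosolic ribosomal list and 1587 in the respiratory chain list, against 3909 over all genes tested. With an offset for length and GC content in each library, chosen after seeing the data, the list medians were -0.17 for cytosolic ribosomal, -0.19 for mitochondrial ribosomal, -0.13 for respiratory chain and -0.13 for proteasome genes. The same offset gave -0.97 for Scin and -0.57 for Rapsn.

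**Figure D4:**
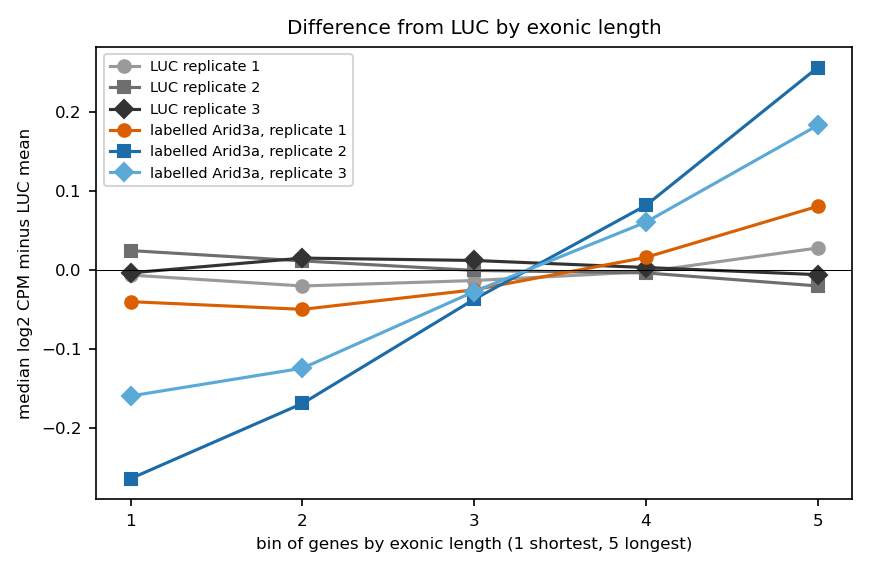
Median log2 CPM minus the LUC mean of each of the 6 libraries in 5 equal bins of genes by exonic length, from the shortest (1) to the longest (5). The libraries labelled Arid3a slope upward, most in replicate 2 (from -0.26 to 0.26) and least in replicate 1 (from -0.04 to 0.08), while the LUC libraries stay within 0.03 of 0.

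DNA replication genes were lower to a like degree in all 3 libraries. Of 40 tested, 35 were below 0, with a median of -0.20, and the medians by library were -0.22, -0.18 and -0.20. In 24 the groups did not overlap, all lower (14.6% of all genes), and 11 had an adjusted p under 0.1 with lower levels (2.52% of all genes). Without replicate 1, 19 were called lower (10.7% of all genes) and 2 higher (13.1%). The median exonic length was 4045 bases, near that of all genes, and with the length and GC offset the median was -0.17. Tyms, thymidylate synthase, stood at 171, 186 and 174 CPM in LUC and at 126, 128 and 133 CPM in the libraries labelled Arid3a, a log2 fold change of -0.46 (SE 0.061, adjusted p 0.0678). Dut, which clears dUTP, stood at 298, 332 and 307 CPM against 230, 199 and 217 CPM. Pcna, the sliding clamp of the polymerases, stood at 631, 625 and 600 CPM against 500.2, 464 and 489 CPM. Of 40 mitosis genes tested, 24 were above 0 and 16 below, with a median of 0.04. Cenpf, a kinetochore protein, was at 99.6, 103 and 92.0 CPM against 122, 165 and 138 CPM, and Birc5, survivin, at 174, 191 and 186 CPM against 157, 145 and 145 CPM. Cdk4, the kinase partner of D cyclins, was at 491, 525 and 524 CPM against 450, 430 and 433 CPM.

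Signalling lists leaned the other way. Of 20 genes of IGF and insulin signalling, 18 were above 0, with a median of 0.29, the groups did not overlap in 10, all higher (13% of all genes), and 6 had an adjusted p under 0.1 with higher levels (2.99%). Igf1r, the receptor of insulin-like growth factors, stood at 168, 174 and 161 CPM in LUC and at 207, 270 and 237 CPM in the libraries labelled Arid3a, a log2 fold change of 0.51 (SE 0.099, adjusted p 0.0836). Foxo3, a factor that insulin signalling holds out of the nucleus, stood at 91.3, 93.0 and 89.9 CPM against 116, 130 and 139 CPM, a log2 fold change of 0.49 (adjusted p 0.076). Pik3r1, the regulatory subunit of PI3-kinase, was higher at 0.49 and Tsc1, a brake on mTOR, at 0.38. These are long genes, with a median of 9198 exonic bases, and the list's median was 0.12 with the length and GC offset. Foxo3 was then at 0.39 and Igf1r at 0.19.

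Of 32 genes of the TGF-beta pathway and its response, 24 were above 0, with a median of 0.27, and 0.29 with the offset. None had an adjusted p under 0.1, a level reached by 5.51% of all genes tested, so few would be looked for in a list of this size. The medians by library were 0.21, 0.19 and 0.39, and the groups did not overlap in 10, all higher, against 13% of all genes. Among transducers, Smad3 was at 52.6, 40.9 and 49.6 CPM in LUC and at 59.1, 59.0 and 61.6 CPM in the libraries labelled Arid3a. Among inhibitors of the pathway, Smurf2, a ubiquitin ligase acting on its receptors, was at 26.7, 23.1 and 25.6 CPM against 29.7, 33.7 and 33.0 CPM, and Skil, a repressor that binds SMADs, at 41.2, 45.0 and 39.3 CPM against 50.1, 50.6 and 49.9 CPM. Itgav, an integrin subunit that frees latent TGF-beta, was at 17.8, 12.9 and 13.3 CPM against 22.9, 20.9 and 19.6 CPM. Their adjusted p were 0.134, 0.111, 0.126 and 0.117. The ligand gene Tgfb1 stood at 695, 754 and 784 CPM against 838, 588 and 622 CPM, with replicate 1 above and replicates 2 and 3 below every LUC library.

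Of 12 ARID family genes tested, Arid3a included, 11 were above 0, with a median of 0.33 and 0.14 with the offset. Arid2, a subunit of the PBAF remodelling complex, stood at 127, 120 and 113 CPM in LUC and at 147, 198 and 181 CPM in the libraries labelled Arid3a (log2 fold change 0.55, SE 0.11, adjusted p 0.0852). Jarid2, a partner of Polycomb complex 2, stood at 90.0, 78.3 and 85.4 CPM against 105, 119 and 113 CPM. Kdm5a, a histone H3 lysine 4 demethylase, was at 99.2, 88.3 and 89.2 CPM against 105, 148 and 127 CPM. In all 3 replicate 1 lay nearest to LUC, and the list's median exonic length was 11106 bases. Among regulators of early blood cells, Meis1, a homeobox partner of HOX proteins, was at 159, 146 and 160 CPM against 221, 202 and 198 CPM (log2 fold change 0.42, adjusted p 0.0778). Kit, the stem cell factor receptor, was at 22, 23.6 and 34.3 CPM against 34.4, 57.1 and 72.5 CPM (log2 fold change 1.04, adjusted p 0.11).

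**Figure D5:**
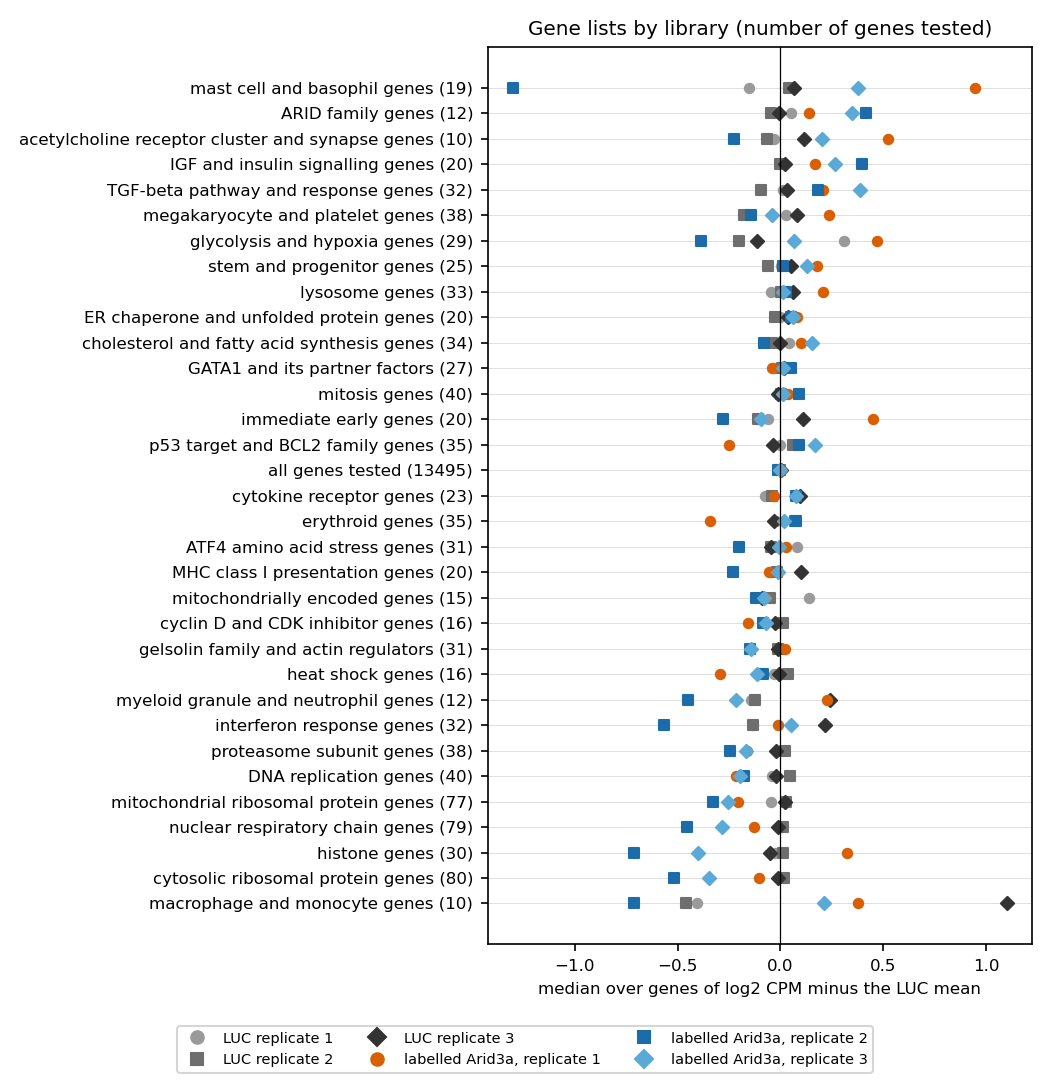
Median, over the genes of each list with at least 10 genes tested, of log2 CPM minus the LUC mean, in each of the 6 libraries. The 3 coloured points of DNA replication genes lie together near -0.20, those of ribosomal and respiratory chain genes are spread below 0, and those of mast cell genes run from -1.30 to 0.95.

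Interferon response genes included 2 abundant members with lower levels. Ifitm1 and Ifitm3, membrane proteins that block virus entry, stood at 2463, 2944 and 2431 CPM and at 617, 764 and 763 CPM in LUC. In the libraries labelled Arid3a they were at 2037, 1792 and 1850 CPM and at 437, 472 and 539 CPM. The log2 fold changes were -0.46 (adjusted p 0.0852) and -0.57 (adjusted p 0.0843). Over the whole list, these 2 included, 23 of 32 were below 0, with library medians of -0.01, -0.57 and 0.05 in the libraries labelled Arid3a. Of 16 heat shock genes, 13 were below 0, with a median of -0.14, and in 9 the groups did not overlap, all lower, against 14.6% of all genes. Fkbp4, a co-chaperone of HSP90, was at 448, 504 and 480 CPM against 370, 414 and 416 CPM. Phgdh and Shmt2, enzymes of serine synthesis and use, were at 333, 367 and 368 CPM against 269, 275 and 277 CPM, and at 513, 558 and 536 CPM against 472, 397 and 415 CPM. Fos, an immediate early gene, was near its floor in LUC, at 0.088, 0.0263 and 0.548 CPM, and at 10.1, 1.68 and 1.09 CPM in the libraries labelled Arid3a.

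The remaining lists lay nearer to the median of all genes or were spread by library. The medians were 0.12 for 33 lysosome genes, 0.08 for 34 genes of cholesterol and fatty acid synthesis, 0.09 for 20 chaperone and unfolded protein genes of the endoplasmic reticulum, and 0.15 for 25 stem and progenitor genes. They were 0.05 for 27 genes of GATA1 and its partners, 0.01 for 23 cytokine receptor genes, 0.02 for 35 p53 target and BCL2 family genes, and 0.02 for 20 immediate early genes. They were -0.04 for 31 amino acid stress genes of the ATF4 type, -0.07 for 20 genes of MHC class I presentation, -0.12 for 15 mitochondrially encoded genes and -0.13 for 16 genes of D cyclins and CDK inhibitors. Glycolysis and hypoxia genes (29 tested, median 0.20) stood at 0.47, -0.39 and 0.07 in the libraries labelled Arid3a and at 0.31, -0.20 and -0.11 in LUC, so that number 1 was high and number 2 low in both groups. Histone genes (30 tested, median -0.31) stood at 0.32, -0.71 and -0.40, with replicate 1 above LUC and the other 2 below. None of the genes of these lists passed 0.05. Among them, the medians of stem and progenitor, p53 and BCL2 family, MHC class I, amino acid stress, immediate early, glycolysis and mitochondrially encoded genes changed sign in at least 1 of 18 alternative settings. So did those of the megakaryocyte and platelet, erythroid, interferon, mast cell and acetylcholine receptor lists. The myeloid granule, macrophage, hepatocyte, endothelial and stromal, and sex-linked lists also changed sign in at least 1 setting.

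Markers of other cell types moved with single libraries. Mast cell and basophil genes, a lineage that fetal liver cultures can hold, had library medians of 0.95, -1.30 and 0.38 in the libraries labelled Arid3a. Cpa3, carboxypeptidase A of mast cells, stood at 18.6, 18.5 and 30.6 CPM in LUC and at 151, 1.62 and 30.6 CPM, and Hpgds, prostaglandin D synthase, at 5.54, 1.16 and 5.70 CPM against 75.0, 1.18 and 4.35 CPM. The summed level of all 28 listed genes was 1968 to 2213 CPM in LUC and 3586, 1867 and 2063 CPM in the libraries labelled Arid3a. Replicate 1 was thus high and replicate 2 low in the median and sum of this list, but members differed. Of 19 tested, 15 had a log2 fold change above 0 and 4 below. In replicate 1 the largest parts of the sum were Alox5 at 927 CPM and Gata2, also in the GATA1 list, at 812 CPM. Tpsb2 stood at 3.72, 6.08 and 0.709 CPM in LUC and at 2.21 CPM in replicate 1. Il6 was lowest of all 6 libraries in replicate 1, at 5.82 CPM. The part of such cells in the position of replicate 1 was not tested. The 30 macrophage and monocyte genes summed to 25.5 to 87.1 CPM in LUC and 20.6 to 82.1 CPM in the others, with Cd163 and Marco at 0. The 30 myeloid granule genes summed to 413, 419 and 637 CPM in LUC and 541, 243 and 292 CPM in the others, with Ly6g at 0 and LUC replicate 3 high through the neutrophil genes given above. The 26 lymphoid genes summed to at most 24.3 CPM, with 9 at 0, among them Pax5 and Cd3e. The 20 hepatocyte genes summed to at most 2.43 CPM, with Hnf4a and Apob at 0. The 23 endothelial and stromal genes summed to 471 to 574 CPM and 450.3 to 551 CPM, mostly from Vim and Pecam1, with Cdh5 and Col3a1 at 0. The 40 megakaryocyte and platelet genes summed to 7400 to 8142 CPM in LUC and 7802 to 9507 CPM in the others, and none was at 0 in all 6. Members differed widely. The fibrinogen receptor genes were at 355 to 1863 CPM, while Tubb1, the beta-1 tubulin of platelets, was at 0.909 to 2.45 CPM, the platelet selectin gene Selp at 0.263 to 0.773 CPM and the ADP receptor gene P2ry12 at most at 0.161 CPM.

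A separate table holds the hairpin against Arid3a (shArid3a, replicates 1 and 3) and its control hairpin (sh-ctrl, 3 libraries), in sgGata1 cells after 10 days of doxycycline, so time and vector differ from the transgene comparison and no library is shared. There Arid3a itself was called, at 45.2, 56.3 and 57.2 CPM in sh-ctrl and 20.4 and 18.9 CPM in shArid3a (log2 fold change -1.43, adjusted p 0.0232), 1 of 13 calls among 14004 genes (0.0928%). Of the 12 genes with the largest positive differences in the libraries labelled Arid3a, all 12 had a log2 fold change below 0 with the hairpin, with a median of -1.18. Csf2rb alone of these was called, at -1.61 (adjusted p 0.0232). The sign of Dmd was not resolved, at -0.15 (SE 0.90) and near the floor. Its levels were 0.79, 0.15 and 0.76 CPM in sh-ctrl and 0.84 and 0.18 CPM in shArid3a. Of the 12 with the largest negative differences, 7 were above 0 with the hairpin and 5 below, and Cd24a alone was called, at 1.61 (adjusted p 0.0232). Over all genes tested with the hairpin, 48.4% were above 0. Exonic length in all of the higher 12 but Hba-a1 was above the median of 3909 bases over all genes tested. With the hairpin, list medians were -0.61 and -0.57 for the long ARID family and IGF and insulin signalling genes. They were 0.51 and 0.54 for the short cytosolic ribosomal and respiratory chain genes, and -0.14 for the short mitochondrially encoded genes. The part of length in the hairpin values was not tested. Scin and Rapsn stood at 0.49 and 0.36 with the hairpin, with adjusted p of 0.252 and 0.227. Among the lower 12, Ccnd1 was lower with the hairpin too, at -2.26 (adjusted p 0.0745). The relation between the comparisons was not tested here.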

How the data were processed

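RNA sequencing was used on total RNA extracted with a Zymo kit, per the labels' protocols. The submitters' processing notes name fastp, HISAT2 2.0.5, featureCounts and mm10, and use of strand is not given in the sources used here. The authors deposited raw read counts per gene for 47069 genes, with no normalization, and every value was whole. Groups came from the labels. Genes were kept by edgeR's filterByExpr, scaled by TMM and fitted with edgeR 4.0.16 in R 4.3.3 (estimateDisp, glmQLFit with legacy=FALSE, glmQLFTest, 1 term for the group, 4 residual degrees of freedom), with Benjamini-Hochberg adjustment over all genes tested and a threshold of 0.05. The hairpin table was fitted separately in the same way, with its miR-125b libraries in the fit. CPM are TMM-scaled, and log values used a prior count of 2. Standard errors were derived from the F statistics. The scripts were tested on simulated data.

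Positions, exonic lengths and GC content came from GENCODE M21 (GRCm38), which matched 46574 of the genes by identifier, and upstream windows from RefSeq (GRCm38.p6). Named genes were Arid3a and Gata1, the 12 largest differences in each direction as defined in the text, 4 genes in each direction in which replicate 1 lay furthest against a call made without it, and up to 4 per list with the smallest unadjusted p. Hba-a2, Hbb-bs, Hbb-bt, Itga2b, Mylk, Pf4, Gsn, Smad3, Tgfb1, Cpa3, Gata2, Tpsb2, Il6, Tek, Tubb1, Selp, P2ry12, Eif2s3y, S100a9, Ngp, Ltf, Lcn2 and the genes given as at 0 were added after their values were seen, as was the word AGATAA. Some genes that the rule names are not reported here, though counts and medians include them. The members and lists were chosen with earlier results of these data known. The 36 lists comprised 30 written from general knowledge and 6 taken by gene name. Counts are reads without molecular identifiers. Alternatives were other scalings, filters and fits (DESeq2 1.42.0, limma 3.58.1), each replicate left out, a replicate block, and offsets for length and GC content, the last added after seeing the data.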

Additional observations from a re-analysis of the deposited data

How the results depend on the processing

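The number of calls depended on the fit and on replicate 1 labelled Arid3a. Against 2 genes in the main fit, 0 were called with DESeq2's size factors in edgeR, with library totals alone, with the older quasi-likelihood fit, with the robust fit, with the length offset and with the length and GC offset. Calls numbered 155 with no filter on low counts (76 higher, 79 lower), 1342 with DESeq2 (747 higher, 595 lower), 4395 with limma voom and sample weights, and 2465 with the length and GC offset and replicate 1 left out. Leaving out 1 library gave 0 to 3283, the highest without replicate 1 labelled Arid3a. Without LUC replicate 1 the 1 call was Gm9701, a predicted gene not tested in the main fit. At 0.1, 744 genes became 1973 with DESeq2, 5629 with limma voom, 21 with the length offset, 214 with the length and GC offset, 3540 with it and replicate 1 left out, and 0 to 4357 with 1 library left out. With library totals they split into 558 higher and 218 lower, against 404 and 340. The shift of the median over all genes was at most 0.05. Unadjusted p under 0.05 was reached by 2930 genes in the main fit and 2885 in the older fit.

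With the replicate block, 0 genes were called, 0 reached 0.1, and 2600 had an unadjusted p under 0.05. Deviations of same-numbered libraries correlated at 0.158, 0.365 and 0.0084. The Y-linked gene Eif2s3y had 360 and 356 counts in replicate 3 of the 2 groups and at most 2 in any other library. The labels do not say that a number marks a shared origin, and the main fit did not take the numbers as pairs. Whether they are pairs was not tested. The hairpin comparison went from 13 calls to 25 with library totals, 1600 with DESeq2, 31 with the replicate block, and 2 to 15 with 1 library left out. Arid3a was at 0.22 with limma voom (adjusted p 0.0397) and, with 1 library left out, at -0.019 to 0.21. Gata1 was at -0.22 with limma voom and, with 1 library left out, at -0.27 (without replicate 1 labelled Arid3a) to -0.16. Signs turned for Mc5r without replicate 2 labelled Arid3a (-0.36), for Auts2 with the length offset (-0.0025), and in the 3 settings that drop or weigh down replicate 1: Ppbp at -1.38, -2.54 and -2.32, Gpr171 at -0.51, -0.96 and -0.81, and Chd3 at -0.71, -0.91 and -1.07 (limma voom, without replicate 1, and the same with the length and GC offset). Over all fits with 1 library left out, the highest values were 0.64 for Mc5r, 2.15 for Ppbp, 1.42 for Gpr171 and 0.91 for Chd3. The cause was not tested. Scin and Rapsn were each called in 6 of 18 alternatives. With 3 libraries a group, 1 of which stands apart, a gene that misses the threshold is not shown to be equal.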
